A study of Mus musculus with 8 samples.

Results

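The genes described here encode the ErbB receptor tyrosine kinases and their ligands, namely the receptors Egfr, Erbb2, Erbb3 and Erbb4 and the ligands Hbegf, Btc, Tgfa, Ereg, Egf and Nrg1. They were chosen by gene symbol, and each gene was read from the probe set that the array annotation gives to that symbol alone, taking the one with the highest mean signal. A probe set of this kind was found for 9 of the 10 genes, out of 14860 genes with such a probe set, and each of the 9 had 1 such probe set. Erbb4 was not analysed here. Gene expression had been measured in 8 mammary tumours with Affymetrix Mouse Exon 1.0 ST arrays, whose probes lie in the exons, on 1 array per tumour. All 8 tumours arose in MMTV-PyVT mice of a mixed FVB/CD1 background, which carry the middle T oncogene of polyoma virus (PyVT) under the promoter of the mouse mammary tumour virus (MMTV), active mainly in the mammary epithelium. In 4 tumours (MMTV-PyVT/HdhQ7/Q7) both alleles of the Huntington disease gene encoded huntingtin with 7 glutamines, and in the other 4 (MMTV-PyVT/HdhQ111/Q111) both encoded huntingtin with 111 glutamines. None was treated, the tumours were dissected and snap-frozen, and the labels give no age. According to the study, the array tumours of both genotypes were taken at a set time after detection. It also reports that tumours appeared earlier in HdhQ111/Q111 mice, so age and genotype cannot be told apart.

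ErbB receptors are activated when a ligand drives them to pair. Egfr binds Egf, Tgfa, Hbegf, Btc and Ereg, whereas Nrg1 binds Erbb3 and Erbb4. Erbb2 has no known ligand of its own and acts as the preferred partner of the other receptors, and Erbb3 has little kinase activity and signals mainly through such pairs. The ligands are made as membrane-bound precursors that proteases release. In the mammary gland these receptors take part in duct growth and milk-producing differentiation, and ERBB2 is amplified in a class of human breast cancers. The study followed the ErbB2 protein in tumours of these genotypes. For the ErbB2 transcript it reported no obvious difference between them, on its arrays and by quantitative PCR. The arrays allow a comparison of the transcripts of the receptors, of their ligands and of the genes that act with them.

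None of the 9 genes rose or fell between the genotypes. The words rise and fall are kept for an adjusted p under 0.05 from limma (Benjamini-Hochberg over 23332 probe sets), which 0.0129% of all probe sets met. The study's thresholds were a change of 1.5-fold or more and an unadjusted p of 0.05 or less. They were met by 0 of the 9, beside 1.36% of all probe sets with limma and 0.913% with the methods' t-test. An unadjusted p under 0.05 from limma was found for 1 gene, Erbb2, beside 7.88% of all probe sets (2.68% with a lower signal, as for Erbb2), and from the methods' t-test for 0, beside 7.32%. The signal was lower in HdhQ111/Q111 tumours for 7 of the 9 and higher for Btc and Egf, with a median log2 fold change of -0.09 (HdhQ111/Q111 over HdhQ7/Q7). Over all probe sets the median was 0.02, and 43.6% were lower. For each of the 9 genes the signals of the genotypes overlapped, whereas 4.43% of all probe sets showed no overlap. The 95% confidence interval stayed inside a 1.5-fold change in either direction for Erbb2, Erbb3, Hbegf, Btc and Ereg, and it reached past 1.5-fold for Egfr, Tgfa, Egf and Nrg1. Whether the 4 tumours of a genotype came from 4 mice is not stated, and the p-values cover only the spread between the arrays at hand, which may in part be technical.

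**Figure D1:**
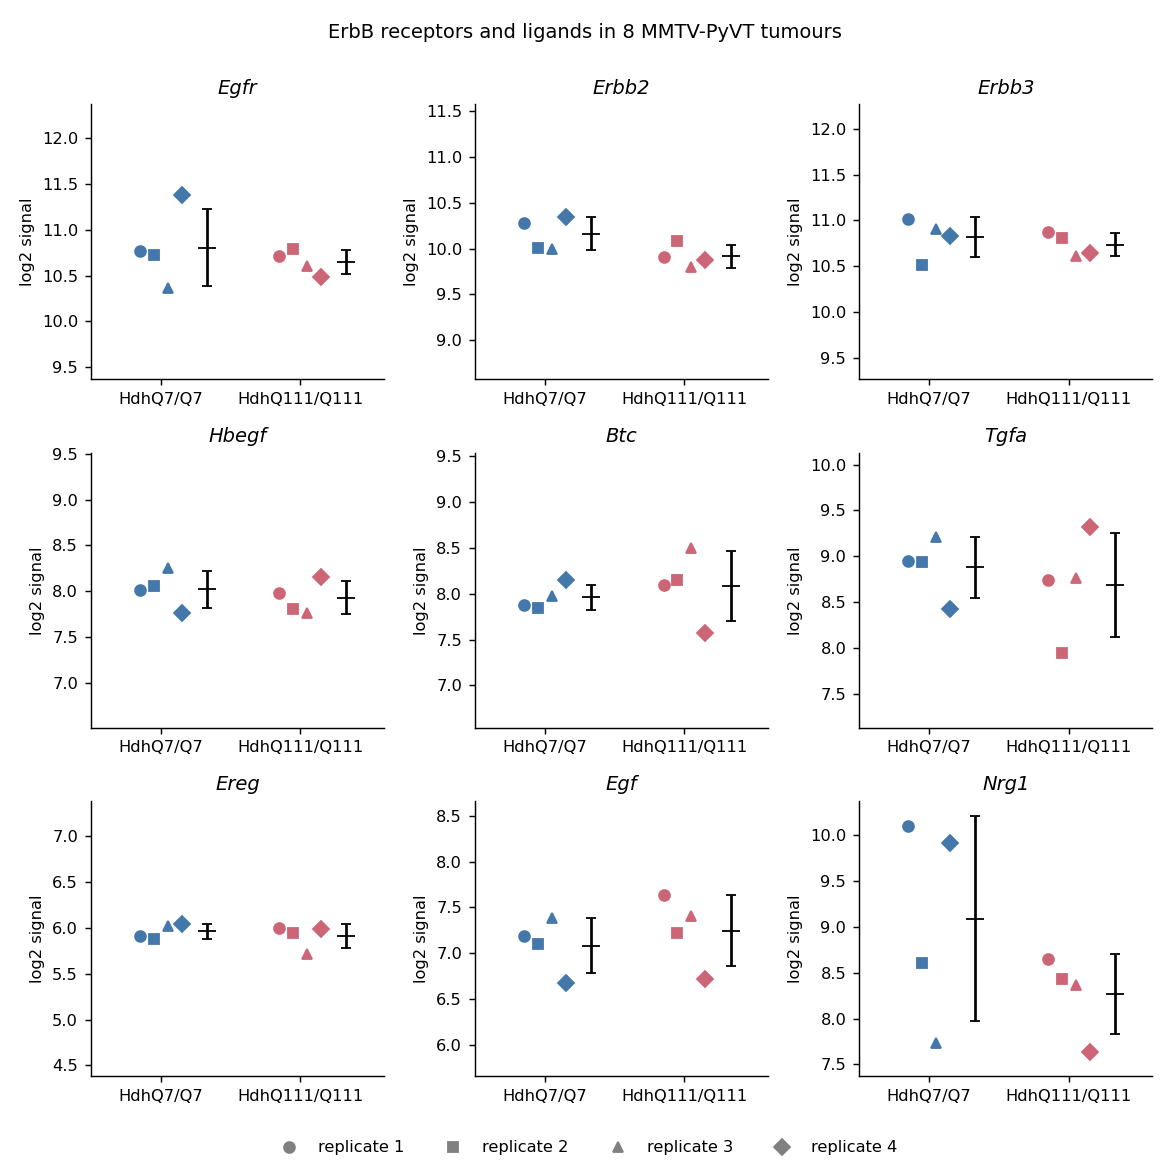
Log2 signal of each of the 9 genes (y axis, the same span in each panel) in the 4 HdhQ7/Q7 tumours (blue) and the 4 HdhQ111/Q111 tumours (red), with symbols for replicates 1 to 4 and bars for the mean and SD of each genotype. The genotypes overlap in every panel, and the widest spread is that of Nrg1 among HdhQ7/Q7 tumours, from 7.74 to 10.11.

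**Figure D2:**
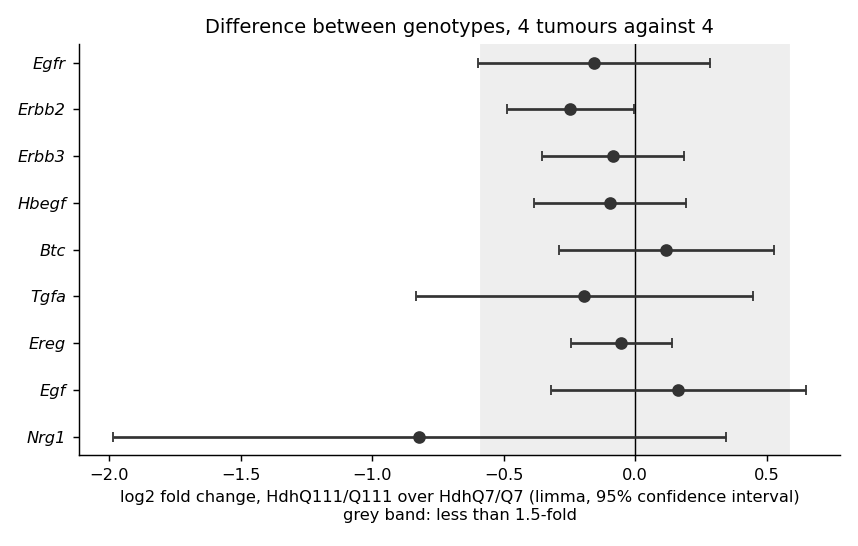
Log2 fold change of each gene (x axis, HdhQ111/Q111 over HdhQ7/Q7, points) with its 95% confidence interval from limma (bars). The interval of Erbb2 ends just below 0, at -0.0048, the other 8 include 0, and that of Nrg1 is the widest.

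Among the receptors, Erbb2 had the smallest p. Its log2 signal was 10.28, 10.01, 10 and 10.35 in HdhQ7/Q7 replicates 1 to 4, and 9.90, 10.08, 9.80 and 9.87 in HdhQ111/Q111 replicates 1 to 4. HdhQ7/Q7 replicates 1 and 4 were the highest, HdhQ111/Q111 replicate 2 lay above HdhQ7/Q7 replicates 2 and 3, and the other 3 HdhQ111/Q111 tumours were the lowest of the 8. The mean was 9.91 ± 0.12 (SD, n = 4) in HdhQ111/Q111 and 10.16 ± 0.18 (SD, n = 4) in HdhQ7/Q7 tumours, a 1.19-fold lower signal. On the log2 scale the change was -0.25 with a standard error of 0.11 and a 95% confidence interval from -0.49 to -0.0048 (adjusted p = 0.630 from limma). Limma's unadjusted p was 0.0465. The exact permutation test over the 70 labellings of 4 tumours against 4, two-sided, gave p = 0.0857, where the smallest p it can give is 0.0286. Leaving out single tumours moved the log2 fold change between -0.30 and -0.18.

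Egfr, the receptor of the epidermal growth factor, had log2 signals of 10.76, 10.72, 10.36 and 11.38 in HdhQ7/Q7 replicates 1 to 4, and of 10.72, 10.79, 10.61 and 10.49 in HdhQ111/Q111 replicates 1 to 4. Both the highest and the lowest of the 8 values were HdhQ7/Q7 tumours, replicates 4 and 3, and the HdhQ111/Q111 tumours lay between them. The mean was 10.65 ± 0.13 (SD, n = 4) against 10.81 ± 0.42 (SD, n = 4). The log2 fold change of -0.16 (95% confidence interval from -0.60 to 0.28, adjusted p = 0.855 from limma) became 0.034 without HdhQ7/Q7 replicate 4, so that its sign rested on that tumour. Erbb3, the partner that recruits phosphatidylinositol 3-kinase, had signals of 11.02, 10.52, 10.91 and 10.83 against 10.87, 10.81, 10.61 and 10.64, in the same order of tumours. HdhQ7/Q7 replicates 1 and 2 gave the extremes. Its log2 fold change was -0.08 with a 95% confidence interval from -0.35 to 0.18 (adjusted p = 0.869 from limma). It lay between -0.19, without HdhQ7/Q7 replicate 2, and -0.019, without HdhQ7/Q7 replicate 1.

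Because these were bulk tumours, fewer cells of a type and less RNA per cell cannot be told apart. The mean log2 signal of 9 luminal epithelial markers, which include the keratin Krt18, the adhesion protein Epcam and E-cadherin (Cdh1), lay between 11.3 and 11.5 in the tumours of either genotype. Subtracting this mean from each receptor in each tumour left a difference of -0.20 for Erbb2 (exact permutation p = 0.2), of -0.11 for Egfr (exact permutation p = 0.8) and of -0.04 for Erbb3 (exact permutation p = 0.829). With Krt18 and Epcam alone as the reference the differences were -0.18, -0.09 and -0.02. Some lists of markers of other cells differed more in level between the genotypes. All 10 fibroblast markers were higher in HdhQ111/Q111 tumours, where their mean lay between 8.93 and 9.27 against 8.18 to 8.69 in HdhQ7/Q7 tumours, and 6 of the 10, namely Pdgfra, Pdgfrb, Col1a1, Col1a2, Col3a1 and Dcn, did not overlap between the genotypes, beside 4.43% of all probe sets. All 9 basal and myoepithelial markers were also higher (mean 7.98 to 8.96 against 7.85 to 8.07), as were all 7 adipocyte markers measured (6.59 to 9.91 against 6.36 to 7.19). Of 8 macrophage markers 6 were higher and 2 lower, and Adgre1 and Tyrobp, both higher, did not overlap. Of 6 T cell markers 2 were higher and 4 lower, and Cd3e and Cd8a, both lower, did not overlap. These stand beside the same 4.43% of all probe sets. All 4 hormone-sensing luminal markers measured were lower. Skeletal muscle markers were high in HdhQ111/Q111 replicates 3 and 4 (10.4 in each) and lay between 6.92 and 8.74 in the other 6 tumours. At the study's thresholds limma called 4 fibroblast, 3 basal, 2 adipocyte and 1 macrophage markers, all higher, beside 1.02% of all probe sets in that direction. The methods' t-test called 4, 1, 0 and 1 of these lists, beside 0.913% of all probe sets in either direction. None of these markers passed an adjusted p under 0.05.

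Nrg1, the neuregulin that binds Erbb3 and Erbb4, varied most. Its log2 signal was 10.11, 8.61, 7.74 and 9.92 in HdhQ7/Q7 replicates 1 to 4, and 8.65, 8.43, 8.37 and 7.64 in HdhQ111/Q111 replicates 1 to 4. HdhQ7/Q7 replicates 1 and 4 stood above all other tumours, while HdhQ7/Q7 replicate 3 lay with the lowest HdhQ111/Q111 tumour, replicate 4. The highest and the lowest tumour differed 5.52-fold. The SD within genotypes was 0.85, larger than in 99.4% of the genes measured. Nrg1 was 1.77-fold lower in HdhQ111/Q111 tumours (8.27 ± 0.44 against 9.09 ± 1.12, SD, n = 4 each), a log2 fold change of -0.82 with a standard error of 0.51 and a 95% confidence interval from -1.98 to 0.34 (adjusted p = 0.710 from limma). The exact permutation test gave p = 0.229. Without HdhQ7/Q7 replicate 3 the log2 fold change was -1.27 and limma's unadjusted p was 0.0125, past the study's thresholds, with an adjusted p of 0.593. Over all single tumours left out the log2 fold change lay between -1.27 and -0.48.

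The ligands of Egfr showed smaller differences. Tgfa, transforming growth factor alpha, had log2 signals of 8.95, 8.94, 9.22 and 8.42 in HdhQ7/Q7 replicates 1 to 4, and of 8.74, 7.94, 8.76 and 9.31 in HdhQ111/Q111 replicates 1 to 4. Both extremes were HdhQ111/Q111 tumours, replicate 4 at the top and replicate 2 at the bottom, a 2.59-fold range. Its log2 fold change was -0.19 (95% confidence interval from -0.83 to 0.45, adjusted p = 0.876 from limma), and 0.055 without HdhQ111/Q111 replicate 2. Hbegf, the heparin-binding ligand, ranged from 7.76 to 8.26 in HdhQ7/Q7 tumours and from 7.76 to 8.16 in HdhQ111/Q111 tumours, with a log2 fold change of -0.09 (interval from -0.38 to 0.19) that lay between -0.18 without HdhQ7/Q7 replicate 4 and -0.016 without HdhQ7/Q7 replicate 3. The ranges of the genotypes were thus almost the same.

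Egf, the founding ligand of the family, had signals of 7.18, 7.10, 7.38 and 6.68 in HdhQ7/Q7 replicates 1 to 4, and of 7.64, 7.22, 7.41 and 6.72 in HdhQ111/Q111 replicates 1 to 4. Replicate 4 was the lowest in either genotype. The log2 fold change was 0.16 (interval from -0.32 to 0.65), and between 0.028 without HdhQ7/Q7 replicate 4 and 0.34 without HdhQ111/Q111 replicate 4. Btc, betacellulin, lay between 7.85 and 8.15 in HdhQ7/Q7 tumours and between 7.57 and 8.50 in HdhQ111/Q111 tumours, whose replicate 4 was the lowest and replicate 3 the highest of all 8. Its log2 fold change of 0.12 (interval from -0.29 to 0.53) was -0.021 without HdhQ111/Q111 replicate 3. Ereg, epiregulin, ranged from 5.72 to 6.05 over all 8 tumours with a log2 fold change of -0.05 (interval from -0.25 to 0.14), which became 0.011 without HdhQ111/Q111 replicate 3. Its probe set was among the dimmest 40% on the arrays, where a difference is harder to measure.

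The genes differed in how far they varied within genotypes. Among all genes measured, the within-genotype SD of Tgfa was at the 96.6 percentile, that of Egf at 93.2, that of Egfr at 90.7 and that of Btc at 88.7. Hbegf (72.8), Erbb3 (68.0) and Erbb2 (59.0) lay nearer the middle, and Ereg was at 35.2.

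The 9 genes were compared with each other across the 8 tumours, in 36 pairs. None passed a Benjamini-Hochberg adjusted p under 0.05 (lowest 0.208), and 6 had an unadjusted exact permutation p under 0.05. Hbegf and Tgfa, both ligands of Egfr, had a Pearson r of 0.81 and a Spearman rho of 0.81 (exact permutation p = 0.0124 and p = 0.0186, n = 8), and r was 0.76 without the 2 tumours farthest from the median of Hbegf. Hbegf and Btc ran opposite to each other (r = -0.75, rho = -0.85, exact permutation p = 0.0285 and p = 0.0115, n = 8), with r = -0.94 after the same step. Egfr ran with Nrg1 (r = 0.78, rho = 0.76, exact permutation p = 0.0125 and p = 0.0368, n = 8) and with Erbb2 (r = 0.73, rho = 0.81, exact permutation p = 0.0289 and p = 0.0218, n = 8), and r was 0.68 and 0.70 without the 2 farthest tumours, HdhQ7/Q7 replicates 3 and 4. Without HdhQ7/Q7 replicate 4 alone, the highest tumour for Egfr and Erbb2, r between these receptors was 0.44.

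The other pairs also rested on few tumours. Erbb2 and Nrg1 had r = 0.83 and rho = 0.71 (exact permutation p = 0.0180 and p = 0.0576, n = 8), but r was 0.14 without HdhQ7/Q7 replicates 1 and 4, which were high for both genes. Egfr and Hbegf had r = -0.69 and rho = -0.63 (exact permutation p = 0.0391 and p = 0.101, n = 8), and r was -0.37 without HdhQ7/Q7 replicates 3 and 4. After the genotype means were subtracted, the r of these 6 pairs lay at 0.80 for Hbegf with Tgfa, 0.76 for Egfr with Nrg1, 0.77 for Erbb2 with Nrg1, -0.73 for Hbegf with Btc, 0.77 for Egfr with Erbb2 and -0.83 for Egfr with Hbegf. These values came from deviations within genotypes and kept the signs of the values above. With arrays centred on their medians, r was weaker for Egfr with Hbegf, at -0.46, and was -0.69 for Hbegf with Btc. It was 0.77 for Hbegf with Tgfa, 0.80 for Egfr with Nrg1, 0.79 for Erbb2 with Nrg1 and 0.74 for Egfr with Erbb2.

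**Figure D3:**
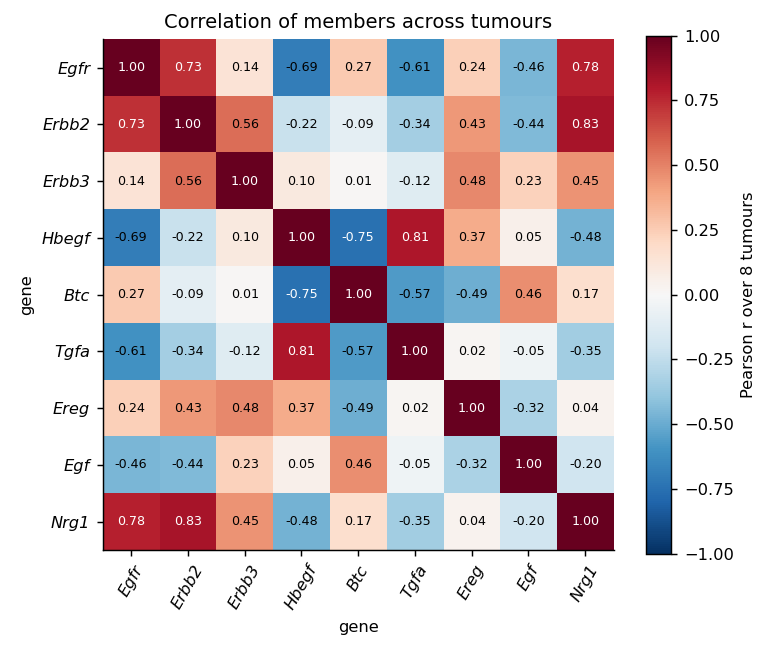
Pearson r over the 8 tumours for every pair of the 9 genes (both axes), on a colour scale from -1 (blue) to 1 (red). Egfr, Erbb2 and Nrg1 have r between 0.73 and 0.83 with each other, and Hbegf has r = 0.81 with Tgfa and -0.75 with Btc.

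Of the measured receptors, Egfr and Erbb2, both on chromosome 11 of the mouse, have an entry in the promoter table used. The 250 bases before the start of each gene are shown, from RefSeq's GRCm38.p6 on the + strand, to give the sequence upstream of the genes whose levels are described. The window is chr11:16751953-16752202 for Egfr and chr11:98412234-98412483 for Erbb2. Capitals mark a match to GGGCGG on either strand, the core of the GC box bound by Sp1.
Egfr: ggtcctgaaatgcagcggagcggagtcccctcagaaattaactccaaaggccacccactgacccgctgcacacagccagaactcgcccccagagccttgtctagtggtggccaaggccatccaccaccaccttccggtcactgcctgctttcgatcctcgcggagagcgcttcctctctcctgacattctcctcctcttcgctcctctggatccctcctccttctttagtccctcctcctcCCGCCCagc
Erbb2: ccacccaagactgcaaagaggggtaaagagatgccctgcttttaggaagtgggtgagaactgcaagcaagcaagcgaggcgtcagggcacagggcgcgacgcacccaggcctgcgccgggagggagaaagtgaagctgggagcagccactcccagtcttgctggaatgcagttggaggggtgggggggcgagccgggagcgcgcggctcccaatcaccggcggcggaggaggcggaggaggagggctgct
The window of Egfr held 1 match to GGGCGG and that of Erbb2 held 0, beside at least 1 match in 32.7% of 32851 promoter windows of the same length. Neither window held TATAAA (12.4% of windows) or TGTTTAC, a forkhead motif (3.17%), each searched on both strands. The share of G and C was 60.8% for Egfr and 66.0% for Erbb2, above the median of 52.4% over all windows. A match is a description of the letters and not a binding site.

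The 9 genes were also set beside the mean of each of 10 lists of cell type markers across the tumours. These 90 relations were chosen after the values had been seen. Of the 90, 5 had an unadjusted exact permutation p under 0.05 for r, and 1 had an adjusted p under 0.05. Nrg1 ran closest with the hormone-sensing luminal markers, of which Esr1 (oestrogen receptor alpha), Pgr (progesterone receptor), the pioneer factor Foxa1 and the transcriptional co-activator Cited1 were measured. The mean of these 4 was 8.76, 8.27, 6.82 and 9.06 in HdhQ7/Q7 replicates 1 to 4, and 7.84, 7.90, 8.09 and 7.09 in HdhQ111/Q111 replicates 1 to 4. The tumours with the most Nrg1, HdhQ7/Q7 replicates 1 and 4, were the highest for these markers, and those with the least Nrg1, HdhQ7/Q7 replicate 3 and HdhQ111/Q111 replicate 4, were the lowest. The r was 0.93 and rho 0.79 (exact permutation p = 0.00422 and p = 0.0279, n = 8, adjusted p = 0.0993 and 0.473 over the 90). Without the 2 farthest tumours r was 0.90, and with genotype means subtracted it was 0.92. By single marker, the r of Nrg1 was 0.94 with Cited1, 0.92 with Foxa1, 0.85 with Pgr and 0.71 with Esr1. Egfr ran with the same list (r = 0.85, rho = 0.81, exact permutation p = 0.00372 and p = 0.0218, n = 8, adjusted p = 0.0993 and 0.473), with r = 0.73 without the 2 farthest tumours.

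Erbb2 ran opposite to the fibroblast markers (r = -0.89, rho = -0.83, exact permutation p = 0.00441 and p = 0.0154, n = 8, adjusted p = 0.0993 and 0.473), with r = -0.80 without the 2 farthest tumours and -0.81 with genotype means subtracted. The tumours with the most Erbb2, HdhQ7/Q7 replicates 4 and 1, had the lowest fibroblast means, 8.18 and 8.36. Nrg1 also ran opposite to this list (r = -0.77, rho = -0.60, exact permutation p = 0.0237 and p = 0.132, adjusted p = 0.427 and 0.716). Egfr had r = -0.63 with it, whereas Hbegf, Tgfa and Egf had positive r (0.19, 0.17 and 0.31). Erbb2 further had r = -0.70 with the macrophage and r = -0.68 with the adipocyte markers (exact permutation p = 0.0559 and p = 0.0613). The one relation of the 90 past an adjusted p under 0.05 was that of Erbb2 with the T cell markers (r = 0.93, rho = 0.90, exact permutation p = 0.000422 and p = 0.00456, n = 8), with an adjusted p of 0.0379 for r and of 0.411 for rho. The mean of the T cell markers lay between 6.15 and 6.32 in HdhQ111/Q111 tumours and between 6.33 and 6.52 in HdhQ7/Q7 tumours, and 5 of the 6 markers were among the dimmest 40% of probe sets. The part of the fibroblasts, macrophages, adipocytes, T cells and hormone-sensing cells in the levels of Erbb2, Egfr and Nrg1 was not tested.

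**Figure D4:**
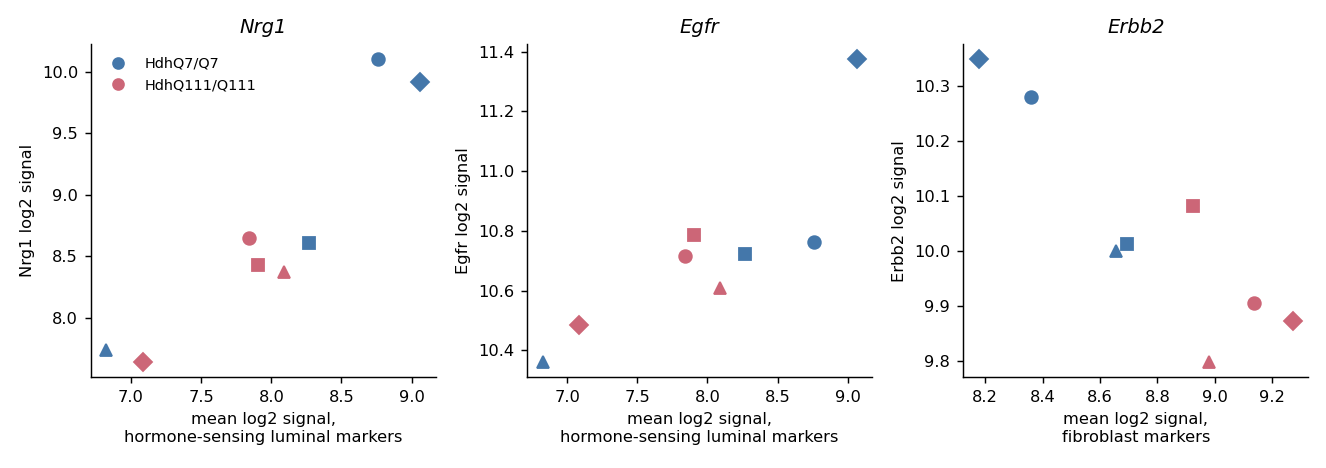
Log2 signal of Nrg1 and Egfr (y axes) against the mean log2 signal of 4 hormone-sensing luminal markers, and of Erbb2 against that of 10 fibroblast markers (x axes), in HdhQ7/Q7 (blue) and HdhQ111/Q111 tumours (red), where circle, square, triangle and diamond stand for replicates 1, 2, 3 and 4. The r over the 8 tumours is 0.93, 0.85 and -0.89 from left to right.

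Of 106 further genes that act with the ErbB receptors, 83 were measured. Of these, 41 were higher and 42 lower in HdhQ111/Q111 tumours, 0 passed the study's thresholds or an adjusted p under 0.05, and 3 had an unadjusted p under 0.05 from limma (4 from the methods' t-test), beside 1.36%, 0.0129% and 7.88% of all probe sets. The 95% confidence interval stayed inside 1.5-fold for 76 of the 83. The genotypes did not overlap in 3 of the 83 genes, Spry2, Src and Eps15l1, a share near the 4.43% of all probe sets without overlap.

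Of the other ligands, Epgn (epigen) and Nrg4 were measured. Nrg4, a neuregulin that binds Erbb4, had the largest positive log2 fold change of the 83, 0.61, or 1.52-fold (standard error 0.29, unadjusted p = 0.0702 and adjusted p = 0.647 from limma). Its log2 signal was 5.23, 5.33, 6.15 and 5.47 in HdhQ7/Q7 replicates 1 to 4, and 6.91, 6.03, 6.03 and 5.62 in HdhQ111/Q111 replicates 1 to 4. HdhQ7/Q7 replicate 3 lay above 3 of the HdhQ111/Q111 tumours, and the probe set was among the dimmest 40%. The value depended on single tumours. It was 0.35 without HdhQ111/Q111 replicate 1, the highest tumour, and 0.81 without HdhQ7/Q7 replicate 3 or 0.78 without HdhQ111/Q111 replicate 4, both past the study's thresholds. Among 7 sheddases and their iRhom regulators, which release the ligands, 4 were higher and 3 lower (median log2 fold change 0.01). The metalloproteases Adam12 (0.21) and Adam19 (0.13) and the protease Bace1 (-0.13), which cleaves Nrg1, had the smallest p.

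Adaptors and effector kinases carry the signal from the receptors to the Ras-ERK and Akt arms. Of the 27 measured, 14 were higher and 13 lower, with a median log2 fold change of 0.01. Nck2, an adaptor that links receptors to actin, had log2 signals of 11.41, 11.21, 11.50 and 11.62 in HdhQ7/Q7 replicates 1 to 4, and of 11.23, 11.31, 11.15 and 10.89 in HdhQ111/Q111 replicates 1 to 4. Its log2 fold change was -0.29 (adjusted p = 0.621 from limma), and HdhQ7/Q7 replicate 2 lay among the HdhQ111/Q111 tumours. The kinase Src had -0.16 (adjusted p = 0.637 from limma), with each HdhQ111/Q111 tumour below each HdhQ7/Q7 tumour, and the phospholipase Plcg1 had 0.17.

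Of 16 inhibitors and ubiquitin regulators, which limit the signal, 8 were higher and 8 lower, with a median log2 fold change of -0.00. Spry2, the Sprouty protein that curbs Ras-ERK signalling, had the smallest p of the 83 genes. Its log2 signal was 8.81, 8.87, 9.0 and 9.29 in HdhQ7/Q7 replicates 1 to 4, and 8.78, 8.81, 8.40 and 8.44 in HdhQ111/Q111 replicates 1 to 4. The genotypes did not overlap, but the highest HdhQ111/Q111 tumour came within rounding of the lowest HdhQ7/Q7 tumour. The log2 fold change was -0.39 with a standard error of 0.14 (adjusted p = 0.594 from limma). Socs4 and Socs5, which direct Egfr to degradation, had 0.21 and -0.15.

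Of 19 genes of receptor endocytosis and sorting, 10 were higher and 9 lower, with a median of 0.00, and all 19 confidence intervals stayed inside 1.5-fold. The chaperone gene Hsp90aa1, also on this list, was read from a probe set among the dimmest 40%, where a difference is harder to measure. Epn2 (epsin 2, adjusted p = 0.630 from limma) had 0.21, Dnm1 (dynamin 1) 0.15 and Eps15l1, an endocytic adaptor, 0.12. In Eps15l1 each HdhQ111/Q111 tumour lay above each HdhQ7/Q7 tumour. Of 12 transcriptional targets of the ERK arm, 4 were higher and 8 lower, with a median of -0.01. The growth regulator Myc had 0.30 (adjusted p = 0.642 from limma), the phosphatase Dusp4, which switches ERK off, had -0.38 (adjusted p = 0.639 from limma) and Phlda1 had -0.16. The targets with the smallest p thus differed in sign.

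**Figure D5:**
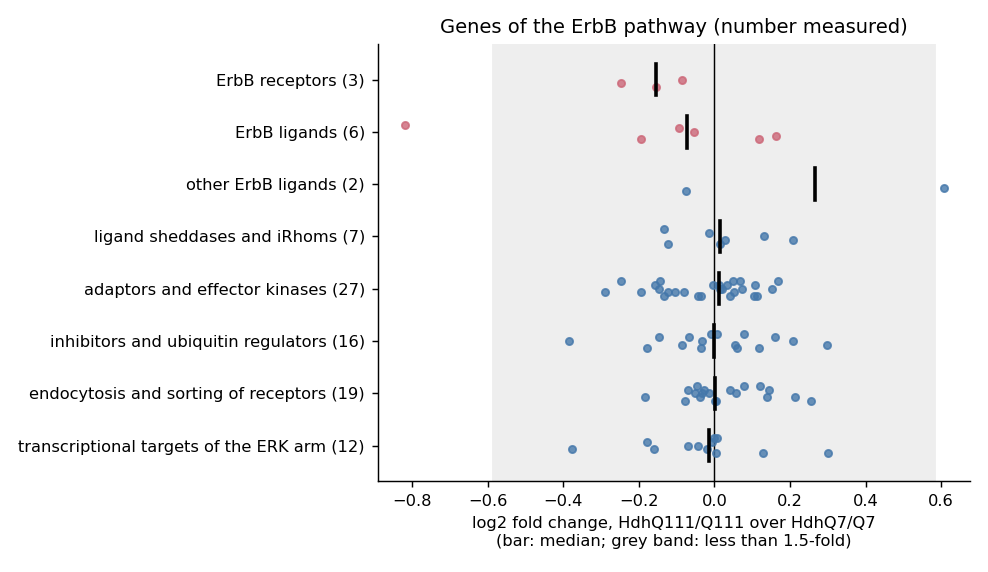
Log2 fold change (x axis, HdhQ111/Q111 over HdhQ7/Q7) of each measured gene of the receptors and ligands (red) and of the 6 lists of genes that act with them (blue), with a bar at the median of each list and a grey band for changes under 1.5-fold. Of the 6 lists, only Nrg4 at 0.61 lies outside the band, and Nrg1 at -0.82 lies outside it on the other side.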

How the data were processed

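Gene expression was measured in 4 HdhQ7/Q7 and 4 HdhQ111/Q111 tumours on an MMTV-PyVT background, and groups and replicate numbers came from the sample titles. The authors deposited log2 signals of 23332 probe sets per array, on a probe set definition of mm9. The methods describe quantile normalization and a background correction from antigenomic probes for the analysis of genes. Whether the deposited table came out of those steps is not stated, so a difference in scaling between arrays could remain. The array medians lay between 7.58 and 7.74 and averaged 0.07 higher in HdhQ111/Q111 tumours, pairs of arrays had r from 0.984 to 0.990, and no further normalization was applied. The platform annotation gives 1 symbol for 14996 probe sets, several for 1019 and none for 7317. Genes were read from probe sets with a single symbol, the one with the highest mean standing for a gene with several. The precision is limited by the number of arrays.

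All probe sets were fitted by genotype with limma 3.58.1 (R 4.3.3), with moderated variances, no trend, no robust fitting and two-sided tests. Single values used exact permutation tests over the 70 labellings, and correlations used exact permutation over all pairings of the 8 tumours. The scripts were tested on simulated data. Python 3.11.15 was used for permutations and, with matplotlib 3.10.9, for plots. The alternatives were the methods' unpaired t-test, array weights, a robust fit with a variance trend, quantile normalization, arrays centred on their medians, removal of the dimmest 40% of probe sets, a replicate block, each tumour left out in turn, a fold threshold of 2, the mean of all single-symbol probe sets of a gene, another luminal reference (Krt18 and Epcam, since Krt8 was not analysed here) and, for correlations, genotype means subtracted.

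The genes, the gene lists and the tests were chosen with earlier results of these data known. The rule for named genes took all receptors and ligands, up to 3 genes of each further list with the smallest p, any past a threshold, the 3 genes most alike to Erbb2, Erbb3 and Egfr, and marker genes without overlap. The relations with marker lists, the neighbours of Erbb2, the genes most alike to Nrg1 and the single hormone-sensing markers were added after the values were seen. A RefSeq table of GRCm38.p6 gave gene order and promoter sequences, with an entry for 6 of the 10 genes.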

Additional observations from a re-analysis of the deposited data

Results flagged for a closer look

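In groups of 4 tumours, a tumour was singled out where its gap to the nearest of the others was a large part of the range of its group (Dixon's 95% criterion), which chance meets in about 5% of groups. Of 72 groups tested, 3 met it, and none of the 18 groups of the receptors and ligands did. HdhQ111/Q111 replicate 2 had the highest log2 signal of Epn2, 9.668, where the other 3 tumours lay between 9.547 and 9.562. The same tumour had the lowest signal of Myc, 10.43, against 10.83 to 10.9 in the others. The mean of the 2 listed Schwann cell markers that were measured, Sox10 and Ngfr, was lowest in HdhQ7/Q7 replicate 4, at 9.031, against 9.3 to 9.336 in the other HdhQ7/Q7 tumours. In that tumour Ngfr was 6.70 against 7.02 to 7.22, and Sox10 was 11.36 against 11.46 to 11.58. Sox10 was thus far above Ngfr and near the luminal marker Krt18, which lay between 11.42 and 11.80 in HdhQ7/Q7 tumours. Which cells carried Sox10 and Ngfr was not tested, so their mean is not read as a measure of Schwann cells.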

How the results depend on the processing

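Over the 9 receptors and ligands, 129 of 134 alternatives kept the direction and the side of the study's thresholds, and the 5 others all left out 1 tumour. The log2 fold change became 0.034 for Egfr without HdhQ7/Q7 replicate 4, -0.021 for Btc and 0.011 for Ereg without HdhQ111/Q111 replicate 3, and 0.055 for Tgfa without HdhQ111/Q111 replicate 2. Over single tumours left out it ranged from -0.30 to 0.034 for Egfr, from -0.021 to 0.29 for Btc, from -0.081 to 0.011 for Ereg and from -0.40 to 0.055 for Tgfa. That of Nrg1 passed the thresholds without HdhQ7/Q7 replicate 3 (-1.27). The difference relative to luminal markers became 0.088 for Egfr without HdhQ7/Q7 replicate 4 and 0.035 for Erbb3 without HdhQ111/Q111 replicate 4, and leaving out single tumours gave -0.28 to 0.088 for Egfr, -0.28 to -0.13 for Erbb2 and -0.10 to 0.035 for Erbb3. Over the named pathway genes 249 of 253 alternatives kept the direction and the side of the thresholds. Epgn turned to 0.061 without HdhQ7/Q7 replicate 3 and to 0.067 without HdhQ111/Q111 replicate 2 (range -0.15 to 0.067), and Nrg4 passed the thresholds without HdhQ7/Q7 replicate 3 (0.81) or HdhQ111/Q111 replicate 4 (0.78) and was 0.35 without HdhQ111/Q111 replicate 1 (range 0.35 to 0.81). Leaving out single tumours gave 0 to 1 receptors and ligands and 0 to 1 pathway genes past the thresholds, 0 receptors and ligands at an adjusted p under 0.05, a median log2 fold change of the receptors and ligands from -0.17 to -0.04, and 271 to 459 probe sets of all, where 317 passed with all tumours. That number was 184 without the dimmest 40% of probe sets and 71 at a fold threshold of 2, both of which take fewer probe sets by construction. Quantile normalization and centring moved the median of the receptors and ligands to -0.16 each. Limma's p for Erbb2 lay between 0.0256 and 0.119 with single tumours left out, was 0.0225 after centring, and was 0.0744 with the replicate block.

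Same-numbered tumours did not deviate together (r of their deviations over probe sets 0.03, -0.09, 0.02 and -0.19 for replicates 1 to 4), so the numbers were not taken to pair the tumours. With the replicate block 332 probe sets and 0 receptors and ligands passed the study's thresholds. The number of arrays and dim probe sets, such as those of Ereg, Epgn and Nrg4, limit what could be measured.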

Other observations

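The genes most alike to each receptor over the 8 tumours, out of 14860, were Tcea2 (r = 0.98), Otoa (0.98) and Lysmd4 (0.96) for Erbb2, Zfp788 (0.97), Rdm1 (0.97) and Spns3 (0.97) for Egfr, and Ciz1 (0.93), Grina (0.93) and Proc (0.92) for Erbb3. For Nrg1 they were Gipc2 (0.98), Msx2 (0.98) and Hdac11 (0.98). These are the extremes of many correlations over 8 tumours and are given as a description, with no test.

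The 3 nearest measured genes on each side of Erbb2 in the RefSeq order of GRCm38.p6 were taken, 6 in all. Genes that were not measured were passed over, among them the one directly before Erbb2. The adaptor gene Grb7, 2 places on, had r = 0.84 and rho = 0.67 with Erbb2 over the 8 tumours (exact permutation p = 0.0132 and p = 0.0831, n = 8, adjusted p = 0.0464 and 0.166 over the 6). Its log2 signal was 9.93, 9.22, 9.41 and 10.06 in HdhQ7/Q7 replicates 1 to 4, and 9.61, 9.52, 9.32 and 9.38 in HdhQ111/Q111 replicates 1 to 4. HdhQ7/Q7 replicates 1 and 4 were the highest for both genes, and without them r was 0.14. Mien1, which lies between them, had r = 0.05 with Erbb2, and -0.79 without HdhQ7/Q7 replicate 4. Ppp1r1b, 5 places before Erbb2, had r = 0.81 and rho = 0.86 (exact permutation p = 0.0155 and p = 0.0107, n = 8, adjusted p = 0.0464 and 0.0321), and r was also 0.81 without those tumours. Zpbp2, 4 places on, had r = 0.70 and rho = 0.88 (exact permutation p = 0.0502 and p = 0.00724, n = 8, adjusted p = 0.100 and 0.0321), and r was 0.57 without those tumours. The log2 signal of Zpbp2 lay only between 4.25 and 4.48, among the dimmest 40% of probe sets. With genotype means subtracted r was 0.38 for Zpbp2, 0.87 for Grb7 and 0.76 for Ppp1r1b. Pnmt and Tcap had r = 0.45 and r = -0.59. Copy number was not measured.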
